A study of Mus musculus with 16 samples.

Results

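The comparison described here is the difference between c-Met KO and WT mouse liver that does not depend on diet. It used all 16 arrays of the study, 8 labelled c-Met KO and 8 labelled WT, which is 16 of 16 samples. On each diet 4 KO and 4 WT arrays were measured: the chow WT, chow KO, high cholesterol WT and high cholesterol KO groups. All mice were of the 129SV/C57BL/6 background and were fed for 30 days, either a regular chow diet or a diet with 2% cholesterol and 0.5% sodium cholate. The study title describes the loss of c-Met as conditional and in the liver. The Cre driver, sex and age are not given in the sources used here, nor whether the samples of a group came from separate animals, so the p-values below measure the spread between these samples. Genotype was fitted with diet as an additive term and no interaction, so each gene got a single KO minus WT value on the log2 scale. That value was then read beside the separate differences on chow and on high cholesterol, which share no arrays.

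MET is the receptor tyrosine kinase for hepatocyte growth factor (HGF), a ligand made mainly by non-parenchymal cells of the liver. On ligand binding it signals through GAB1, the ERK and AKT kinases and STAT3, and it is known in liver for its part in hepatocyte survival, regeneration and protection from injury. SOCS3, itself a STAT3 target, dampens cytokine signalling, and the phosphatase PTP1B, encoded by Ptpn1, dephosphorylates the insulin receptor and MET.

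Between 10028 and 11952 of 25697 probes were detected per array, and 9265 genes were tested, each by its brightest detected probe. Arrays of the same group correlated at r of 0.967 to 0.991 over the tested genes. The hepatocyte list averaged 11.54 to 11.91 (log2 intensity) over its 11 measured genes on every array, all of which were labelled liver. One array, high cholesterol KO replicate 3, stood apart in inflammatory markers: its 29 acute phase genes averaged 11.84 against 10.35 to 10.64 on the other arrays of its group, its 13 Kupffer cell genes 9.02 against 7.56 to 8.07 and its 2 measured neutrophil genes 11.30 against 7.71 to 8.47. No skeletal muscle marker was measured. RNA was taken from whole liver, so fewer cells of a type and less RNA per cell cannot be told apart.

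No gene passed the test. At an adjusted p under 0.05 (limma, Benjamini-Hochberg over 9265 genes), 0 of 9265 genes, 0%, differed between KO and WT over both diets, and the lowest adjusted p was 0.0692. At an unadjusted p under 0.05 there were 1355 genes, 14.6% of those tested, where a flat distribution of p-values would give 463. Of these, 669 (7.22%) were higher in KO on both diets, 656 (7.08%) were lower on both, and 30 had opposite signs. Under median scaling 106 were higher and 1957 lower. An averaged difference reaches a low p more easily when both diets share a sign, so that split is given as a count only. Other settings gave other counts: 10 genes from the average contrast of 4 group means, 56 with array weights, 88 under median scaling, which moved the median of all genes by -0.13, and 12 without high cholesterol WT replicate 3. Leaving out any of 13 other arrays gave 0, chow WT replicate 2 gave 2 and high cholesterol WT replicate 1 gave 1. In a simulation of the same design, limma recovered 43 of 67 genes changed by 0.5, 64 of 67 changed by 1 and 65 of 66 changed by 2 on the log2 scale. It also called 7 genes in error. On the real arrays, Serpina12 at -1.34 and Akr1c19 at 1.01 did not pass (limma adjusted p = 0.132 and 0.13). The recovery in simulated data thus does not show that differences of 1 were absent from these livers. The genes named below are therefore described by their values, and words such as higher and lower refer to those values.

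The measured genotype differences on the diets correlated weakly across genes. The difference on chow and the difference on high cholesterol had the same sign for 5073 genes, 54.8%, and their Pearson r across genes was 0.085 (Spearman rho 0.12). Genes are not independent replicates, so this is a description with no p. On chow 1470 genes (15.9%) had an unadjusted p under 0.05 and on high cholesterol 905 genes (9.77%). Both held for 145 of 9265 genes, of which 50 were higher on both diets, 54 were lower on both and 41 had opposite signs. The number that unrelated lists of these sizes would share was not tested, so 145 is a count only. The 104 genes of one direction made up 7.07% of the chow list. Of all genes, 9.77% had that p on high cholesterol, with either sign. The same 104 made up 11.5% of the high cholesterol list, and 15.9% of all genes had that p on chow, with either sign. Of the chow list, 62.4% had the same sign on high cholesterol, and of the high cholesterol list 58.2% had the same sign on chow. Differences over both diets were small: 14 genes had an absolute value of at least 1 on the log2 scale and 237 of at least 0.5.

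**Figure D1:**
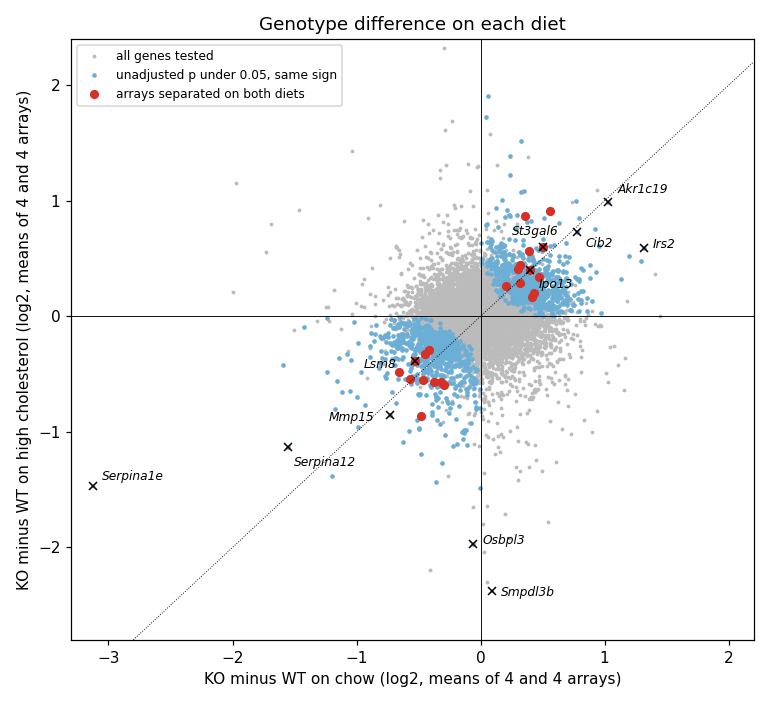
KO minus WT difference on chow (x axis, log2, means of 4 and 4 arrays) against the same on high cholesterol (y axis) for 9265 genes. Blue points have an unadjusted additive p under 0.05 and the same sign on both diets, red points are the 22 genes whose KO and WT arrays did not overlap on either diet, crosses mark named genes, and the dotted line is equality. The cloud is near round, with a Pearson r of 0.085.

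The targeted gene could not check the labels. The Met probe was detected on 7 of 16 arrays: on 2 of 4 in chow WT, 3 of 4 in chow KO, 1 of 4 in high cholesterol WT and 1 of 4 in high cholesterol KO. On chow it read 4.55, 4.47, 5.01 and 5.29 in WT and 5.27, 4.91, 5.52 and 5.17 in KO (log2 intensity). The high cholesterol arrays read 4.74, 5.19, 4.90 and 4.77 in WT and 5.13, 4.70, 4.95 and 4.64 in KO. The groups overlapped on both diets and the additive difference was 0.17 ± 0.14 (SE, 8 against 8 arrays, limma adjusted p = 0.602). Whether the probe lies within the deleted part of the gene was not analysed here.

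On chow, KO and WT arrays did not overlap for 1272 of 9265 genes, in either direction, and on high cholesterol for 363. Separation on both diets in the same direction was rarer. Its number was not tested against what unrelated diets would give, so the genes are listed by value only. For 22 genes (0.237% of those tested) every KO array lay on one side of every WT array on both diets in the same direction, 12 higher and 10 lower. Those higher in KO included St3gal6, Cyp2c37, Adck5, Ipo13, Slc12a3, Diras1, Atp5h, 9530027K23Rik, Slc6a12, Snx15 and Timm44. Those lower were Lpxn, Lsm8, Col4a2, LOC626152, Cyp2a12, Enpp5, Nsbp1, 4432416J03Rik, Rab4a and Gng10. Across all 16 arrays with no regard to diet, only Lsm8 and Ipo13 kept the 8 KO and 8 WT arrays apart.

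Lsm8 encodes a subunit of the nuclear LSM ring that binds the U6 spliceosomal RNA. It read 8.37, 8.11, 7.79 and 7.92 in chow WT and 7.69, 7.51, 7.30 and 7.60 in chow KO. On the cholesterol diet the values were 8.11, 8.22, 8.11 and 7.91 in WT and 7.69, 7.76, 7.58 and 7.76 in KO. All 8 KO arrays were below all 8 WT arrays, and the additive difference was -0.46 ± 0.10 (limma adjusted p = 0.121, and 0.0364 to 0.434 over the settings tried). Lsm8 lies on chromosome 6, the chromosome of Met, and is the measured gene 2 places after Met in RefSeq gene order.

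Lsm8, which like Ipo13 kept the genotypes apart, stands near Met in gene order, and whether this place bears on its value was not tested. Both start regions are printed, 250 bases upstream of each RefSeq start (GRCm38.p6, plus strand), Met at chr6:17463707-17463956 and Lsm8 at chr6:18848385-18848634.
Met: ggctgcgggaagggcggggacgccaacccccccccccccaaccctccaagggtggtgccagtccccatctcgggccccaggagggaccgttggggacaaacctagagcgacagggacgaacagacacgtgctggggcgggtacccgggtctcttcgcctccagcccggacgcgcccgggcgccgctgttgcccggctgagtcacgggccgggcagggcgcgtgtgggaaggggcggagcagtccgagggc
Lsm8: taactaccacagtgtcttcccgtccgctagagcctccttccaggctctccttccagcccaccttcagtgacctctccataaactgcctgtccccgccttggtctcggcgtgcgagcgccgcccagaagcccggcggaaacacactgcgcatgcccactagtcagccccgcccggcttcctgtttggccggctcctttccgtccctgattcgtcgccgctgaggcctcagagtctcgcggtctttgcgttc
Each line is in lower case with no motif marked, and the array files name no genome build.

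The measured genes around Met were read in the same order. Of 122 measured genes, 22 before Met and 100 after it, 26 (21.3%) had an unadjusted p under 0.05 and one sign on both diets, and 0 passed after adjustment. Among the 20 nearest the share was 3 of 20, 15%, beside 14.3% of all genes by the same rule. The 3 were Phf14, a PHD finger protein, at 0.28 ± 0.12, Lsm8, and Cadps2, which primes secretory vesicles for release, at -0.38 ± 0.13. Further out, 17 and 16 places before Met, stood the paraoxonases Pon1 and Pon3, lactonases carried on HDL. Pon1 read 13.19, 13.29, 13.37 and 13.46 in chow WT and 13.63, 13.61, 13.66 and 13.63 in chow KO. On high cholesterol Pon1 read 12.67, 12.62, 11.95 and 12.90 in WT and 13.15, 13.08, 12.67 and 13.00 in KO. The KO arrays were above all WT arrays on chow and overlapped WT on high cholesterol, with an additive difference of 0.37 ± 0.12 (limma adjusted p = 0.184). Pon3 had 0.39 ± 0.11, and another probe of Pon3 gave 0.04 ± 0.14. Tspan33, a tetraspanin 19 places after Met, had -0.51 ± 0.13 (limma adjusted p = 0.134). Neighbours thus stood on either side of 0.

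**Figure D2:**
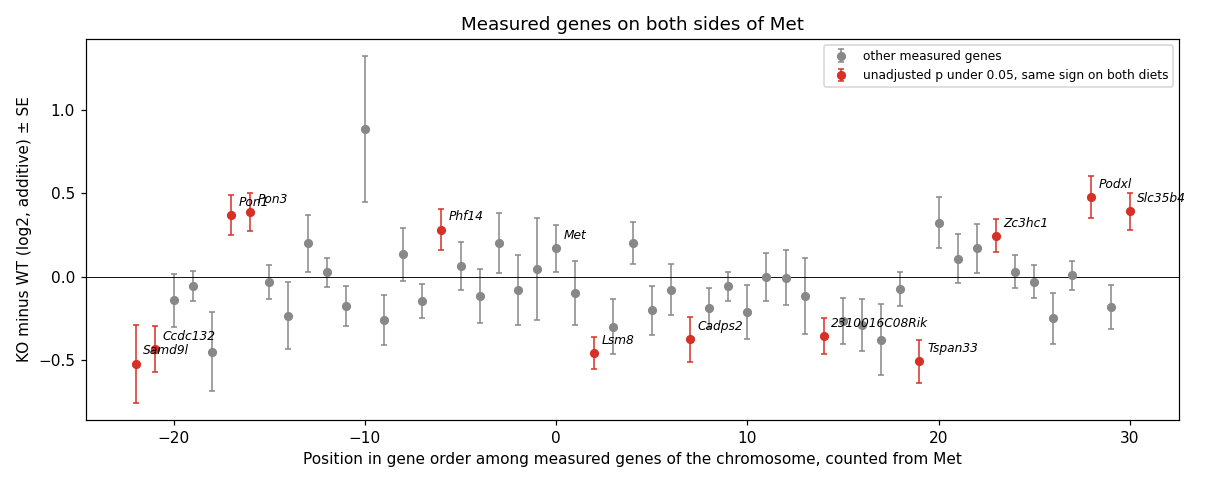
Additive KO minus WT difference (log2, ± SE, 8 against 8 arrays) of the measured genes around Met, by their place in gene order counted from Met. Red points have an unadjusted p under 0.05 and one sign on both diets, and they lie both above and below 0 (Pon3 0.39, Lsm8 -0.46).

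Ipo13, an importin of the nuclear pore transport system, was the other gene with no overlap over all 16 arrays. It read 7.69, 7.61, 8.06 and 7.73 in chow WT and 8.13, 8.13, 8.10 and 8.32 in chow KO. With high cholesterol the gene read 8.01, 8.02, 7.96 and 7.56 in WT and 8.16, 8.47, 8.21 and 8.31 in KO. The highest WT array and the lowest KO array were 8.06 and 8.10, and the additive difference was 0.40 ± 0.10 (limma adjusted p = 0.133).

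The lowest p-values belonged to Cib2 and St3gal6. Cib2, a calcium- and integrin-binding protein, read 7.30, 7.29, 7.24 and 7.12 in chow WT and 7.97, 7.75, 8.20 and 8.13 in chow KO. On high cholesterol it read 6.90, 6.57, 6.03 and 6.11 in WT and 7.27, 7.39, 7.01 and 6.86 in KO. The genotypes were apart on chow, and on high cholesterol the lowest KO array lay just under the highest WT array. The difference was 0.77 on chow and 0.73 on high cholesterol, 0.75 ± 0.12 in all (1.68-fold, limma adjusted p = 0.0692, and 0.0101 to 0.447 over the settings tried), and another Cib2 probe gave 0.52 ± 0.13.

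St3gal6, a sialyltransferase that caps glycans with sialic acid, read 5.89, 6.04, 6.06 and 5.72 in chow WT and 6.32, 6.48, 6.63 and 6.30 in chow KO. The high cholesterol arrays read 4.88, 5.09, 5.22 and 5.08 in WT and 5.94, 5.51, 5.64 and 5.59 in KO. Its probe was detected on 2 of 4 high cholesterol WT arrays. The KO arrays were above WT on each diet, by 0.50 and 0.60, and the additive difference was 0.55 ± 0.09 (limma adjusted p = 0.0692). Of the 33 settings tried, Cib2 passed the threshold in 7 and St3gal6 in 6.

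Mmp15, a membrane-type matrix metalloproteinase, had the lowest p among genes lower in KO. It read 8.62, 7.56, 8.12 and 8.41 in chow WT and 7.62, 7.50, 7.21 and 7.46 in chow KO. On the cholesterol diet the values were 9.34, 9.35, 8.87 and 9.23 in WT and 8.67, 8.15, 7.99 and 8.55 in KO. A single chow WT array, at 7.56, lay within the KO range, and the additive difference was -0.79 ± 0.14 (limma adjusted p = 0.093). Without that array the adjusted p was 0.0146, and over all settings tried it ran from 0.0146 to 0.447. Lpxn, the focal adhesion protein leupaxin, had -0.57 ± 0.12 with no overlap on either diet. Bmp4, a secreted growth factor, had -0.70 ± 0.15.

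**Figure D3:**
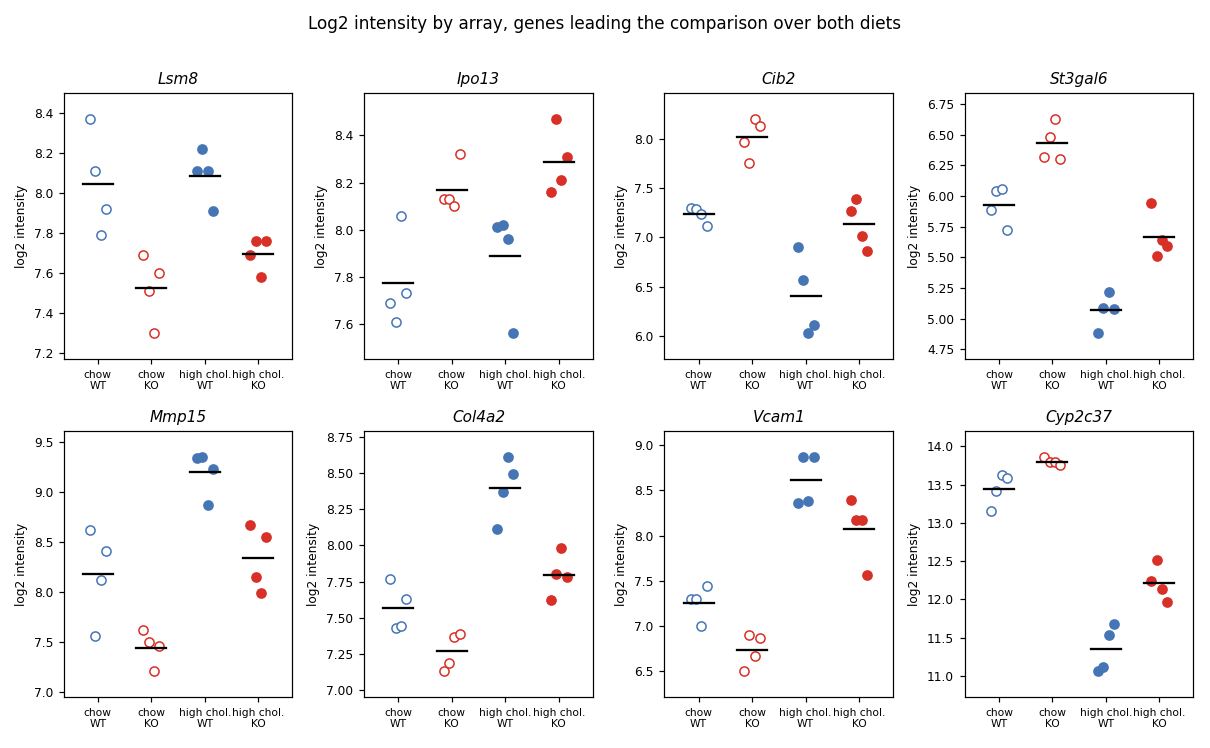
Log2 intensity of 8 genes on every array by group (open circles chow, filled circles high cholesterol, blue WT, red KO, black bars group means of 4 arrays). KO arrays lie below WT arrays for Lsm8 and above them for Ipo13 with no overlap over all 16 arrays, while for Cib2, Mmp15, Vcam1 and others diet moves the level as well.

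Of the MET pathway list, 27 of 41 genes were measured and 0 passed. Stat3, the transcription factor downstream of MET and of interleukin-6, read 9.08, 9.14, 8.92 and 8.95 in chow WT and 9.01, 9.66, 9.75 and 9.83 in chow KO. With high cholesterol the gene read 9.06, 8.87, 8.78 and 9.05 in WT and 9.08, 9.44, 9.86 and 9.33 in KO. On chow 3 of 4 KO arrays were above all WT arrays, and on high cholesterol all 4 were, the lowest by a narrow margin. The additive difference was 0.51 ± 0.13 (limma adjusted p = 0.133), and the other Stat3 probes gave 0.60 and 0.22.

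Socs3 read 6.04, 5.81, 6.18 and 6.31 in chow WT and 6.72, 7.15, 7.94 and 7.70 in chow KO, with no overlap. On high cholesterol it read 7.88, 6.91, 6.55 and 4.94 in WT and 8.01, 6.53, 7.42 and 6.25 in KO, and the ranges overlapped widely. The additive difference was 0.89 ± 0.34 (limma adjusted p = 0.243). Irf1, an interferon regulatory factor and another target of STAT factors, had 0.50 on chow and 0.56 on high cholesterol, 0.53 ± 0.14 over both (limma adjusted p = 0.134). The other 3 Irf1 probes gave 0.10 to 0.15, so the value rests on the brightest probe. High cholesterol KO replicate 3, the array with the high inflammatory markers, held the highest Stat3 (9.86) and Irf1 (10.53) of its group. Without it the additive differences were 0.45 for Stat3, 0.87 for Socs3 and 0.47 for Irf1. Hbegf, an EGF receptor ligand, had 0.25 ± 0.10 and the ERK kinase gene Mapk3 -0.28 ± 0.13, with another Mapk3 probe at -0.05. Map2k2, the kinase upstream of ERK, had 0.58 on chow and 0.01 on high cholesterol, and a dimmer probe -0.12 and -0.13. In the list as a whole 4 genes were higher and 1 lower at an unadjusted p under 0.05, 18.5% of 27 beside 14.6% of all genes, and its median was -0.01 beside 0 for all genes.

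Since Stat3, Socs3 and Irf1 were all higher in KO by value, their starts were searched for TTCNNNGAA, the letters of a STAT element, which reads the same on both strands. The Irf1 and Socs3 windows of 250 bases upstream of the RefSeq start are shown with the match in capitals (GRCm38.p6, Irf1 at chr11:53769764-53770013 on the plus strand, Socs3 at chr11:117969367-117969616 on the minus strand).
Irf1: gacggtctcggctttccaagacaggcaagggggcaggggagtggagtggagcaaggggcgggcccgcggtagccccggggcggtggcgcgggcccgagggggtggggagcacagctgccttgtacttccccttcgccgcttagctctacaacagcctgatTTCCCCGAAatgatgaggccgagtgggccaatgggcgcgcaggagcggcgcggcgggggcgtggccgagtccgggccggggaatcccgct
Socs3: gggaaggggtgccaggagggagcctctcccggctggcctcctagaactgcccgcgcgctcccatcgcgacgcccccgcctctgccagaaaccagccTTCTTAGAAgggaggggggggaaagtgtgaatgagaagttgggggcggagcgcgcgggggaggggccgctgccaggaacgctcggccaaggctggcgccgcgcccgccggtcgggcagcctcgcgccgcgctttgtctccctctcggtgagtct
The match ended 81 bases before the Irf1 start and 145 bases before the Socs3 start. A further Irf1 start and the starts of Stat3, Met and Lsm8 held no match. Of 32851 RefSeq windows of this length, 2306 (7.02%) held these letters, and a match is no evidence of binding.

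Genes of insulin action were among those with values of at least 0.8. Irs2, the insulin receptor substrate that rises on fasting, read 6.84, 7.88, 7.90 and 7.76 in chow WT and 8.57, 8.69, 9.24 and 9.13 in chow KO. The high cholesterol arrays read 7.71, 7.30, 8.13 and 6.80 in WT and 7.80, 8.16, 8.92 and 7.42 in KO. The chow groups were apart and the high cholesterol groups overlapped, with 1.31 on chow, 0.59 on high cholesterol and 0.95 ± 0.24 over both (limma adjusted p = 0.133). Ptpn1 read 5.16, 5.86, 5.08 and 4.98 in chow WT and 5.96, 5.95, 6.53 and 6.33 in chow KO. On high cholesterol Ptpn1 read 6.15, 5.19, 6.59 and 4.91 in WT and 6.04, 6.24, 7.12 and 6.46 in KO. Its additive difference was 0.84 ± 0.22 (limma adjusted p = 0.144), again with overlap on high cholesterol. Serpina12, the adipokine vaspin, read 11.91, 10.77, 10.10 and 10.61 in chow WT and 9.53, 9.80, 8.68 and 9.17 in chow KO. On the cholesterol diet the values were 8.98, 9.06, 7.67 and 8.56 in WT and 8.12, 5.99, 8.03 and 7.59 in KO. KO was lower without overlap on chow only, and the additive difference was -1.34 ± 0.31 (limma adjusted p = 0.132). A dimmer Serpina12 probe gave -0.58 ± 0.23, with -1.02 on chow and -0.13 on high cholesterol.

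The insulin and fasting list as a whole had no common direction. Of 25 measured genes 3 were higher and 2 lower at an unadjusted p under 0.05, 20% beside 14.6% of all genes, and the median was -0.06. Under median scaling that median stood at 0.02 above the median of all genes. Pygl, liver glycogen phosphorylase, had -0.27 ± 0.09, Trib3, a pseudokinase that binds AKT, 0.44 ± 0.19, and Fbp1 of gluconeogenesis 0.26 ± 0.11. Other probes gave -0.13 for Pygl and 0.06 and 0.23 for Trib3. The clock list likewise had no common direction. The deadenylase nocturnin, listed as Ccrn4l, had -0.86 ± 0.32, and another probe -0.38 ± 0.21 with a value of 0.10 on high cholesterol. Per1 had -1.02 on chow and -0.05 on high cholesterol. In the clock list 1 of 19 genes was higher and 2 lower at that p (15.8% beside 14.6% of all genes), with a median of -0.11.

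**Figure D4:**
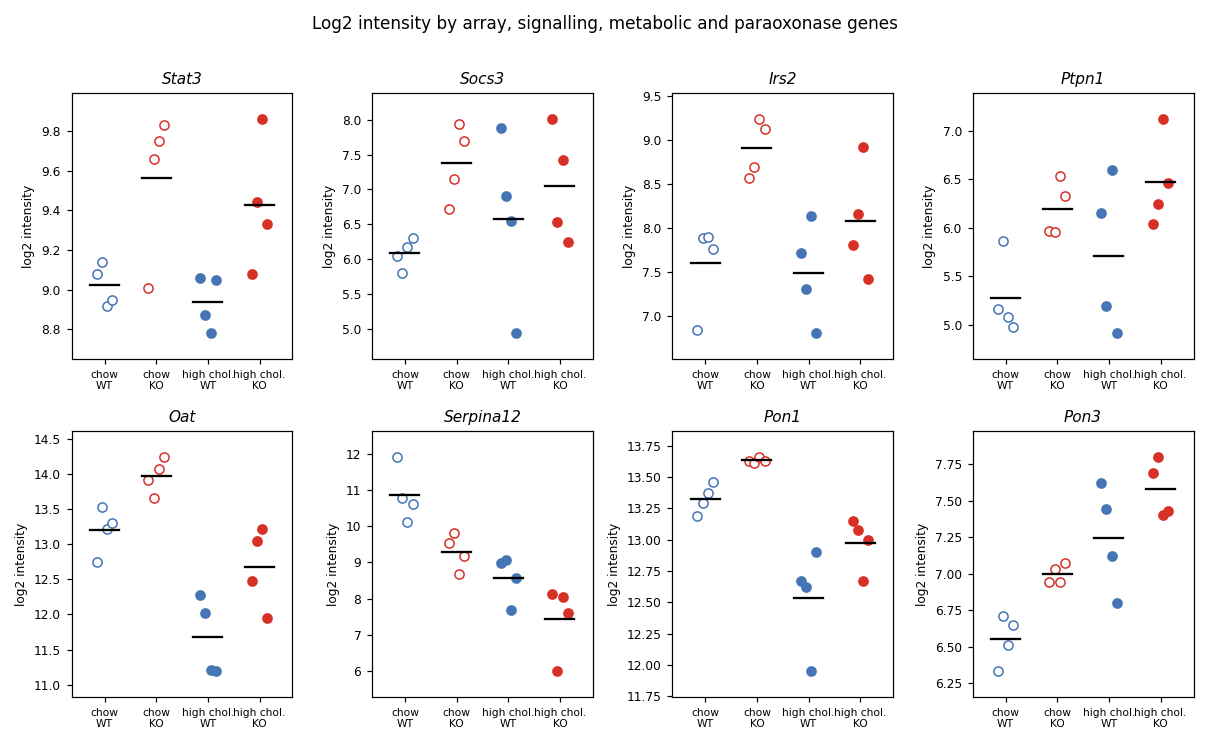
Log2 intensity of 8 genes on every array by group (open circles chow, filled circles high cholesterol, blue WT, red KO, black bars group means of 4 arrays). Irs2, Socs3, Serpina12 and Pon1 are apart on chow and overlap on high cholesterol.

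Among enzymes of drug and redox metabolism, the P450 list had 36 measured genes, 6 higher and 2 lower at an unadjusted p under 0.05 (22.2% beside 14.6% of all genes), a median of 0.09 and 2 genes with no overlap on either diet, beside 0.237% of all genes. Cyp2c37 read 13.16, 13.41, 13.62 and 13.59 in chow WT and 13.86, 13.80, 13.79 and 13.75 in chow KO. With high cholesterol the gene read 11.06, 11.11, 11.54 and 11.68 in WT and 12.24, 12.51, 12.14 and 11.97 in KO. KO was above WT on each diet, by 0.36 and 0.86, and 0.61 ± 0.13 over both (limma adjusted p = 0.121). The related Cyp2c50 had 0.13 on chow and 0.94 on high cholesterol, and the 2 share sequence, so their probes may share transcripts. Cyp2a12 stood the other way, at -0.39 ± 0.09 with no overlap on either diet. Outside the list, the flavin monooxygenase gene Fmo5 had -0.89 ± 0.19 and another probe -0.53, and Akr1c19, an aldo-keto reductase, had 1.01 ± 0.23. Rdh20, a retinol dehydrogenase by name, had -0.86 ± 0.16, while the other 2 probes gave -0.31 and -0.39.

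NRF2 targets and antioxidant genes did not lean one way. Of 49 measured, 3 were higher and 3 lower at an unadjusted p under 0.05 (12.2% beside 14.6% of all genes), with a median of -0.01. Nox4, a hydrogen peroxide-producing NADPH oxidase, had -0.73 ± 0.20, with -0.50 on chow and -0.96 on high cholesterol (limma adjusted p = 0.154). The glutathione transferase gene Gstm5 had -0.37 ± 0.12, and Nqo1, a quinone reductase induced by NRF2, had 0.34 ± 0.15.

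Amino acid catabolism held 46 measured genes, 5 higher and 2 lower at that p (15.2% beside 14.6% of all genes), with a median of -0.01. Oat, ornithine aminotransferase, read 12.74, 13.53, 13.22 and 13.30 in chow WT and 13.91, 13.66, 14.07 and 14.24 in chow KO. On high cholesterol Oat read 12.28, 12.02, 11.21 and 11.19 in WT and 12.48, 13.04, 13.22 and 11.95 in KO. The chow groups were apart, 1 high cholesterol KO array lay within the WT range, and the additive difference was 0.88 ± 0.20 (limma adjusted p = 0.13). Mccc1 of leucine breakdown had 0.47 ± 0.17, Kynu of the kynurenine pathway 0.25 ± 0.09 and Hpd of tyrosine breakdown 0.40 ± 0.16. Ahcy, which clears S-adenosylhomocysteine, had -0.50 ± 0.21. Aldh1b1, a mitochondrial aldehyde dehydrogenase, had -0.97 ± 0.23, and Ccbl2, a kynurenine aminotransferase now named Kyat3, had -0.85 ± 0.18 with another probe at -1.01. Asns, asparagine synthetase and an ATF4 target, had 1.41 on chow and 0.36 on high cholesterol (additive 0.88 ± 0.44), and another probe 0.99 and -0.05.

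Few fatty acid oxidation genes reached an unadjusted p under 0.05. Of 32 measured, 23 had one sign on both diets, where 54.8% of all genes did, 3 were higher and 0 lower at that p (9.38%, beside 14.6% of all genes), and the median was 0.13. Under median scaling it stood 0.09 above a median of all genes of -0.13, which is below 0. Decr1, which reduces dienoyl-CoA in the breakdown of unsaturated fats, had 0.78 ± 0.22, Acads, the short-chain acyl-CoA dehydrogenase, 0.34 ± 0.11, and Bdh1 of ketone metabolism 0.34 ± 0.16. A dimmer Acads probe gave -0.05. In the cholesterol synthesis list 1 of 23 genes was lower at that p and 0 higher (4.35% beside 14.6% of all genes). This was Dhcr7, the last enzyme of the pathway, at -0.79 ± 0.21, while the list's median was 0.06. The LXR target list had 0 of 10.

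Single vessel and matrix genes had differences present on both diets, but their lists as a whole did not share a sign. Of the stellate cell and matrix list 10 of 32 genes had one sign on both diets. Of the endothelial list 8 of 16 did, beside 54.8% of all genes. Vcam1, a leukocyte adhesion receptor, read 7.30, 7.30, 7.00 and 7.44 in chow WT and 6.50, 6.90, 6.67 and 6.87 in chow KO. On high cholesterol it read 8.36, 8.87, 8.38 and 8.87 in WT and 8.39, 8.17, 8.17 and 7.57 in KO. Both genotypes were higher on high cholesterol, KO stood below WT on chow, and 1 KO array lay just within the WT range on high cholesterol, with an additive difference of -0.53 ± 0.13 (limma adjusted p = 0.132). Col4a2, a basement membrane collagen chain, read 7.77, 7.43, 7.44 and 7.63 in chow WT and 7.13, 7.19, 7.37 and 7.39 in chow KO. The high cholesterol arrays read 8.11, 8.37, 8.61 and 8.49 in WT and 7.62, 7.80, 7.98 and 7.78 in KO. The groups did not overlap on either diet and the additive difference was -0.45 ± 0.10 (limma adjusted p = 0.13). Its partner chain gene Col4a1 had 0.01 on chow and -0.86 on high cholesterol.

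The endothelial list had 1 gene higher and 1 lower of 16 measured at an unadjusted p under 0.05 (12.5% beside 14.6% of all genes): Vwf, von Willebrand factor, at 0.38 ± 0.17, and Lyve1, a hyaluronan receptor of sinusoidal cells, at -0.65 ± 0.20 (-0.19 on chow and -1.11 on high cholesterol). Icam2, an endothelial adhesion molecule, had 0.43 ± 0.13 and Alcam, another adhesion molecule, -0.65 ± 0.14 (-0.28 on chow and -1.02 on high cholesterol). The interaction had adjusted p-values of 0.427 for Lyve1 and 0.334 for Alcam (limma). Beside these, the mean of the endothelial list ran from 7.62 to 7.72 in chow WT, 7.59 to 7.85 in chow KO, 7.57 to 7.77 in high cholesterol WT and 7.22 to 7.63 in high cholesterol KO. The stellate cell and matrix list ran from 6.98 to 7.29, 7.23 to 7.53, 7.28 to 7.67 and 7.13 to 7.37 in the same order. Its 32 measured genes had medians of 0.07 on chow and -0.33 on high cholesterol, with 2 higher, 3 lower and 2 of opposite signs at that p (21.9% beside 14.6% of all genes). The part of these cell type levels in the values of Vcam1, Col4a2 and Lyve1 was not tested.

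The interferon, proteasome and ribosomal lists had shares of 9.09% to 15.2% at an unadjusted p under 0.05, beside 14.6% of all genes. The MHC and antigen presentation list had 8.7%, with 1 gene higher and 1 lower of 23. The interferon list had 1 gene higher, Irf1, and 4 lower of 33 (15.2%), among them Lgals3bp at -0.38 ± 0.15 and Irf8, a factor of myeloid cells, at -0.42 ± 0.16. B2m, the MHC class I light chain, had -0.26 ± 0.09. Proteasome genes had 3 higher and 0 lower of 33 (9.09%), with Psmd4 at 0.30 ± 0.10 and Psmb5 at 0.46 ± 0.16 (0.14 on chow and 0.77 on high cholesterol), while the immunoproteasome gene Psmb10 had 0.29 ± 0.11 and another Psmb10 probe 0.16. Ribosomal protein genes had 0 higher and 5 lower of 47 (10.6%), with a median of -0.04. Rps4x read 12.65, 12.39, 12.50 and 12.58 in chow WT and 12.11, 12.25, 12.12 and 12.06 in chow KO, with no overlap. On high cholesterol Rps4x read 12.86, 12.81, 12.86 and 12.66 in WT and 12.53, 12.45, 12.27 and 12.66 in KO, which touched at a single level. Its additive difference was -0.36 ± 0.08 (limma adjusted p = 0.132), and Rps12 had -0.31 ± 0.12 and Rps6 -0.22 ± 0.09. These genes have many near-identical copies in the genome, so their probes are uncertain.

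In the cell cycle list 2 of 33 genes were higher, 3 lower and 1 of opposite signs at an unadjusted p under 0.05 (18.2% beside 14.6% of all genes). Cdkn2c, a CDK inhibitor, had 0.36 ± 0.11 and Tk1, thymidine kinase, -0.47 ± 0.16, with other Tk1 probes at -0.22 and -0.14. Among secreted proteins, the thrombin inhibitor gene Serpind1 had -0.36 ± 0.10 and the acute phase gene Serpina3n 0.36 ± 0.14, and 0.28 without high cholesterol KO replicate 3. Atp5h, a subunit of ATP synthase, had 0.38 ± 0.10 with no overlap on either diet. Its oxidative phosphorylation list had 2 genes higher, 4 lower and 1 of opposite signs of 50 at that p. That was 14% beside 14.6% of all genes, and the median was -0.02. Cd163, a scavenger receptor of Kupffer cells, had 0.35 on chow and 1.09 on high cholesterol (additive 0.72 ± 0.25). High cholesterol KO replicate 3, the array with the high inflammatory markers, held the highest Cd163 (8.17) of its group. In the Kupffer cell list 1 of 13 genes was higher and 0 lower at that p (7.69% beside 14.6% of all genes). The medians of that list were 0.02 on chow and 0.24 on high cholesterol.

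**Figure D5:**
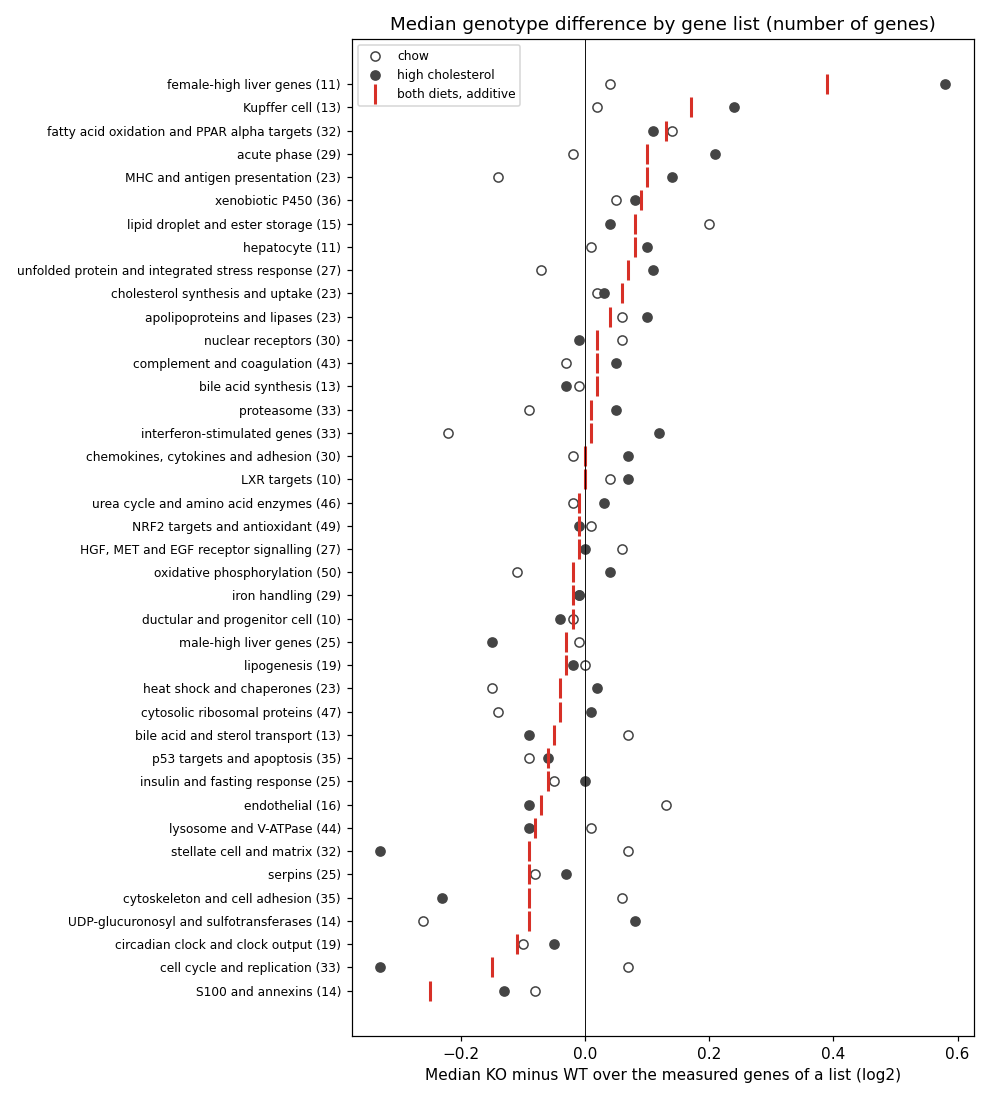
Median KO minus WT difference (log2) over the measured genes of each list with at least 10 of them, on chow (open circles), on high cholesterol (filled circles) and over both diets (red bars), with the number of genes in brackets. The median of the fatty acid oxidation list lies at 0.14 and 0.11, which under median scaling is not above 0 over both diets, whereas the stellate and matrix list differs between diets (0.07 and -0.33).

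Over all 49 lists, which held 1009 measured genes, 0 lists had a gene that passed. Among the 40 lists with at least 10 measured genes the share at an unadjusted p under 0.05 ran from 0% to 22.2%, and the medians from -0.25 to 0.39. The highest median, 0.39 for the 11 measured genes that are typically higher in female liver, came from high cholesterol, with medians of 0.04 on chow and 0.58 on high cholesterol.

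Several large averaged values came from one diet. The test of the interaction called 1 gene of 9265 (0.0108%), Smpdl3b, a sphingomyelinase-like phosphodiesterase. It read 5.36, 4.81, 5.14 and 5.02 in chow WT and 5.28, 5.11, 5.29 and 5.02 in chow KO. On high cholesterol Smpdl3b read 8.25, 7.91, 9.08 and 7.93 in WT and 5.91, 6.65, 5.49 and 5.59 in KO. The genotypes overlapped on chow and were far apart on high cholesterol, and the interaction was -2.47 (limma adjusted p = 0.0222), so its additive value of -1.14 ± 0.34 describes neither diet. Smpdl3b was also low on chow, with detection on 3 of 4 WT and 4 of 4 KO arrays. Its overlap there, and so the size of the interaction, has little precision. The number of genes called in the interaction ran from 0 to 9 when each array was left out in turn, and none passed when the array left out was chow WT replicate 2, 3 or 4, one of the chow KO group, or replicate 1 of high cholesterol KO. The 9 came without high cholesterol WT replicate 4. The oxysterol-binding protein gene Osbpl3 had -0.06 on chow and -1.97 on high cholesterol, with another probe at -0.09 and -0.88. Gpnmb, a glycoprotein of lipid-laden macrophages, had 0.05 and -2.30, and Mcm6, a subunit of the replicative helicase, 0.03 and -2.04. These 3 genes were near background on chow. There, 0 of 4 arrays in each genotype detected Gpnmb. For Osbpl3 the chow counts were 2 in WT and 0 in KO, and for Mcm6 3 and 2. Their chow values near 0 therefore cannot show that a genotype difference was absent on that diet. The interaction had adjusted p-values of 0.148 for Osbpl3, 0.247 for Gpnmb and 0.233 for Mcm6 (limma). Of the 9 measured genes of recruited macrophages 1 had one sign on both diets, and the medians were 0.06 on chow and -0.79 on high cholesterol.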

How the data were processed

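Liver RNA of 16 samples was hybridised to Illumina bead arrays. The deposited signal table holds an intensity per probe, background-subtracted but not normalized between arrays, and a detection p-value that the authors' software, GenomeStudio 2009.1 per the submitters' processing notes, gave each intensity. A second deposited table holds intensity values that the authors normalized, used as an alternative only.

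Values were background-corrected (normexp fitted through the detection p-values, offset 16), quantile-normalized and put on the log2 scale in limma 3.58.1 (R 4.3.3). A probe entered if 4 or more arrays had a detection p under 0.05 (12248 of 25697 probes), and the brightest stood for each of 9265 genes (of 18138 symbols). RefSeq names (GRCm38.p6) matched 8858 genes. The model held genotype and diet; a model with 4 group means gave differences per diet and the interaction. Tests were limma's two-sided moderated test with Benjamini-Hochberg adjustment over all genes at 0.05. Array number, 4 per group, limits the precision. The procedure was tested on simulated data. Figures used Python 3.11.15 and matplotlib 3.10.9.

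Members and lists (36 pathway and 13 cell type) were chosen with earlier results of these data known. The naming rule was Met, the largest called genes, up to 4 genes per list with the smallest p, called neighbours of Met and up to 4 genes called in the interaction. As no gene was called, Lsm8, Ipo13, Cib2, St3gal6, Mmp15, Lpxn, Bmp4, Ptpn1, Fmo5, Akr1c19, Rdh20, Aldh1b1, Ccbl2, Alcam, Osbpl3, the neighbours of Met, the genes listed for separated arrays and list members beyond the first 4 were picked once their values were known. Some genes that the rule or these choices would name are not reported here.

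Alternatives included omitting background correction, offset 50, cyclic loess, median scaling, the authors' values, other filters, other probe rules, the replicate number as a block, group means, no diet term, a variance trend, array weights, stricter thresholds and each array left out. Omitting jointly the 3 arrays of lowest weight was added after seeing the data. The files give no slide or scan date, so neither was tested as a batch. Same-numbered WT and KO samples had residual correlations of -0.11 to 0.10 on chow and 0.10 to 0.27 on high cholesterol. Samples of unlike number were not compared, so these values do not settle whether the numbers mark pairs. The labels do not say what the numbers mark, so the main model did not pair samples by them.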

Additional observations from a re-analysis of the deposited data

Results flagged for a closer look

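In 296 groups of 4 arrays (74 genes), 15 had a lowest or highest array whose gap to the next, as a share of the group's range, was above Dixon's 95% critical value. Chance gives about 1 group in 20, so this number is close to what chance would give. The share was 0.912 for Akr1c19 in chow KO replicate 1, 0.944 for Alcam in chow WT replicate 1 and 0.924 in high cholesterol WT replicate 2, and 0.835 for Aldh1b1 in high cholesterol KO replicate 4. It was 0.902 for Atp5h and 0.891 for Decr1 in chow KO replicate 1, 0.931 for Cadps2 in chow WT replicate 1 and 0.873 for Col4a1 in high cholesterol KO replicate 1. It was 0.862 for Icam2 in chow WT replicate 3, 0.834 for Ipo13 in chow KO replicate 4, 0.866 for Ipo13 in high cholesterol WT replicate 4, 0.892 for Irf8 in chow KO replicate 4 and 0.868 for Irs2 in chow WT replicate 1.

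In Serpina1e, an alpha-1 antitrypsin gene, the gaps spanned several log2 units. Chow WT replicate 3 read 7.71 against 14.62 to 14.71 on the other chow WT arrays (0.987), and chow KO replicate 2 read 14.86 against 7.72 to 8.45 (0.897). Its additive difference was -2.30 ± 1.14 (limma adjusted p = 0.358).

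The interaction of genotype and diet passed the test for Smpdl3b, at -2.47 on the log2 scale.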

How the results depend on the processing

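No gene passed the test over both diets with no background correction, an offset of 50, no detection filter, the mean of probes, single probes, no diet term, a variance trend, an adjusted p under 0.01 or a log2 difference of at least 0.5. With the replicate block 0 genes passed as well, at a lowest adjusted p of 0.0502. Cyclic loess called 2 genes (2 higher, 0 lower), the strict detection filter 2 (2 higher, 0 lower) and the authors' values 1 (1 higher). The average contrast of 4 group means called 10 (4 higher, 5 lower, 1 with opposite signs), array weights 56 (27 higher, 29 lower) and median scaling 88 (1 higher, 87 lower). Median scaling also shifted the split at an unadjusted p under 0.05 to 106 higher and 1957 lower, from 669 and 656. Before normalization the 75th percentile of intensity was 95.4 to 113 in high cholesterol WT and 76.6 to 84.8 in high cholesterol KO. On chow it was 61.4 to 107 in WT and 66 to 75.6 in KO. The part of this in the split was not tested. Leaving out each array in turn gave 0 to 12 called genes, 0 to 7 of them higher and 0 to 5 lower on both diets. Leaving out the 3 arrays of lowest weight together, an alternative chosen with the data known, gave 0. With no diet term 797 genes had an unadjusted p under 0.05, beside 1355. The interaction called 3 genes under median scaling, 4 with the authors' values, 0 with no detection filter, 3 without the 3 arrays, and 0 to 9 when each array was left out. The causes were not tested. The 74 genes checked kept the sign of their additive difference in all 2366 values under the settings that give 1 value a gene. Single probes are not among these values, and dimmer probes of Acads (-0.05) and Map2k2 (-0.13) had the opposite sign. A probe near background, such as that of Met, gives little precision.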
